A study of Homo sapiens with 3 samples.

Results

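The cytosolic ribosomal protein genes of 22Rv1 cells were described here in 3 RNA-seq libraries of WT cells. Members were the protein-coding genes whose symbol is RPL or RPS followed by a number and an optional ending (A, X, L, AL or a letter and a number, as in RPL22L1), together with RPLP0, RPLP1, RPLP2 and RPSA. Kinases of the RPS6K family and pseudogenes were left out. This rule found 87 of the 27024 genes counted in the libraries, 53 of the 60S subunit and 34 of the 40S subunit. Of these, 77 are the main genes of the ribosome and 10 are paralogs, that is, related copies of a main gene (RPL3L, RPL7L1, RPL10L, RPL22L1, RPL26L1, RPL36AL, RPL39L, RPS27L, RPS4Y1 and RPS4Y2).

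The study asked how an enhancer at a prostate cancer risk variant on chromosome 12 acts in prostate cancer cells. The 22Rv1 line is a long-established culture of human prostate carcinoma, and its WT cells keep this enhancer intact and carry the non-risk allele on both copies. The libraries of enhancer KO cells and of cells with the risk allele were not analysed here, so no comparison between conditions was made. The WT samples are called control clones in one place and biological replicates in another, so whether the spread between them is that of clones or of cultures is not settled.

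The ribosome is built from ribosomal RNAs and a single copy of nearly every ribosomal protein, with the acidic stalk proteins RPLP1 and RPLP2 as the exception that is present in several copies. The large 60S subunit joins amino acids, the small 40S subunit reads the mRNA. The mRNAs of these proteins are known for a 5′ terminal oligopyrimidine (TOP) start, a C followed by a run of C and T, through which mTOR and LARP1 control their translation. In cells of any tissue they are among the most abundant mRNAs, and loss of one copy of several of them causes Diamond-Blackfan anemia.

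The depth was between 35675670 and 38629080 reads on genes per library, and the libraries differed by a common biological coefficient of variation of 5.58% (edgeR). All 8 prostate luminal markers examined (HOXB13, FOLH1, TMPRSS2, KLK2, KLK3, KRT8 and KRT18 among them) were expressed, with KLK3 lowest at 311 to 376 normalized counts. CD3E, KRT5 and TP63, markers of T cells and basal cells, were at 0 in each library. Among the markers of other cell types, COL1A1 was highest at 244 to 278 normalized counts. COL1A1, the stromal marker ACTA2 (50.8 to 90.9) and the immune marker CD68 (59 to 79.8) passed the threshold for expression used below. COL3A1, PTPRC and VWF did not. The labels give no batch.

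The start sites of the genes were read first, as a property that the choice of members did not use. RefSeq promoter windows on GRCh38.p14 matched 70 of the 87 members, 62 main genes and 8 paralogs. In 48 of these 70 (68.6%) a C followed by at least 4 C or T began exactly at an annotated start, against 5.14% of all 27305 genes of the table and 7.10% of the 9940 other protein-coding genes expressed in these cells. The run was present at the start of 46 of 62 main genes (74.2%) and of 2 of 8 paralogs. The windows below are shown for 5 of the most abundant members and for paralogs beside their partners, so that the place of the run can be compared within pairs. Each window runs from 10 bases before the start to 20 bases from it, on the strand of the gene, and capitals mark the unbroken C and T run that begins at the start.

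RPLP0 (chr12:120201092-120201121, minus strand): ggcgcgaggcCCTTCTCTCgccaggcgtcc
RPL13A (chr19:49487598-49487627, plus strand): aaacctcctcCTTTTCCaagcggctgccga
RPL3 (chr22:39319604-39319633, minus strand): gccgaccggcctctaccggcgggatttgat
RPL41 (chr12:56116623-56116652, plus strand): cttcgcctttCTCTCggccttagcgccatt
RPS27 (chr1:153990752-153990781, plus strand): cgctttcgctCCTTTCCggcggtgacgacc
RPS27L (chr15:63157458-63157487, minus strand): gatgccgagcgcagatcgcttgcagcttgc
RPL26 (chr17:8383174-8383203, minus strand): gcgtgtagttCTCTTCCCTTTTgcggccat
RPL26L1 (chr5:172958719-172958748, plus strand): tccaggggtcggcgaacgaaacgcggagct
RPL22 (chr1:6199576-6199605, minus strand): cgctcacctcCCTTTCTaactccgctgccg
RPL22L1 (chr3:170870176-170870205, minus strand): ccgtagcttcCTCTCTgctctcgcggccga
RPL36A (chrX:101391001-101391030, plus strand): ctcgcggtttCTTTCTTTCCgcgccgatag
RPL36AL (chr14:49620607-49620636, minus strand): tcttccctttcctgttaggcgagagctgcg
RPS4X (chrX:72277229-72277258, minus strand): ctccagccccaatttctacgcgcaccggaa
RPS4Y1 (chrY:2841592-2841621, plus strand): agaacagattCTCTTCCgtcgcagagtttc

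RPLP0, RPL13A, RPL41, RPS27, RPL26, RPL22 and RPL36A all began with the run, which was 12 bases long in RPL26 and 5 in RPL41. RPL3 did not, as 1 of 16 matched main genes without it. Among the paralogs, RPL22L1 and RPS4Y1 began with it, while RPS27L, RPL26L1, RPL36AL, RPL7L1, RPL10L and RPS4Y2 did not. RPL3 and RPL36AL did hold such a run beginning within 5 bases of the annotated start. In the pair RPS4X and RPS4Y1, the run was at the start of the Y-linked copy and not at the annotated start of the X-linked one. The start is the annotated one and was not measured in these libraries.

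**Figure D1:**
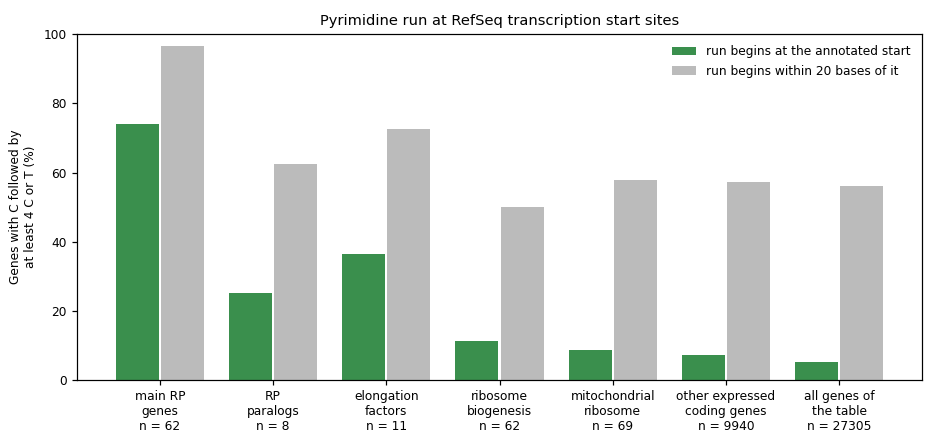
Share of genes (%) with a C followed by at least 4 C or T, either beginning at an annotated RefSeq start (green) or within 20 bases of one (grey), in main ribosomal protein genes (62 matched), their paralogs (8), other gene lists and all 27305 genes of the table. The green bar reaches 74.2% in the main genes and 5.14% over all genes, while the grey bars of all genes reach 56.0%.

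A looser definition separated the genes less. Within 20 bases on either side of an annotated start, 65 of 70 members (92.9%) held such a run, beside 56.0% of all genes. The list of translation elongation factors also holds TPT1, PABPC1 and the release factors ETF1, GSPT1 and GSPT2, which are not elongation factors. Several genes of this list are known TOP mRNAs, and 4 of its 11 matched genes began with the run. Ribosome biogenesis factors did so in 7 of 62 and mitochondrial ribosomal protein genes in 6 of 69.

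Short motifs of known promoter factors were then searched in the same windows of 250 bases before to 50 after the start, on both strands. CCGGAAG, a core of ETS family factors such as GABPA, was in 34.3% of the matched members, beside 12.2% of all genes of the table and 22.7% of the other expressed coding genes. It was more frequent still in biogenesis genes (40.3%), mitochondrial ribosomal protein genes (43.5%) and the 11 matched genes of the elongation factor list (63.6%). AAGATGG, the core of YY1, was in 12.9% of members, 7.11% of all genes and 34.8% of mitochondrial ribosomal protein genes. CACGTG, the E-box bound by MYC, was in 7.14% of members and 8.77% of all genes, whereas ribosome biogenesis genes held it in 40.3%. TATAAA between 40 and 15 bases before the start was in 4 of the 70 members (5.71%), beside 2.90% of all genes. These 4 were 2 of the 62 main genes (3.23%) and 2 of the 8 paralogs. In the other expressed coding genes AAGATGG was in 9.59%, CACGTG in 12.9% and TATAAA in 1.95%. These are matches of letters and no binding was measured.

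Ribosomal protein genes were expressed nearly without exception. At 1 CPM (reads scaled to a common library total) or more in all 3 libraries, 83 of the 87 members were expressed, beside 47.7% of all 27024 genes. The paralogs RPL3L, RPL10L and RPS4Y2 were among those that were not. The members held 7.09% of the reads of replicate 1, 7.10% of replicate 2 and 7.24% of replicate 3, a mean of 7.14% ± 0.0793 (SD, n = 3). The exact 95% binomial intervals (Clopper-Pearson) were 7.09% to 7.10%, 7.10% to 7.11% and 7.23% to 7.24%, so replicate 3 was above the others by more than the counting error of reads, which is the only error these intervals cover. The 60S genes took 4.41% ± 0.0517 and the 40S genes 2.73% ± 0.0276 (SD, n = 3). The 10 paralogs together took 0.0967% ± 0.00161.

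By normalized counts, the authors' unit of reads divided by a size factor per library, the 5 highest members were RPLP0, RPS2, RPL3, RPL13A and RPL41. RPLP0 (chr12:120634502-120639038 on GRCh37, minus strand), the base of the stalk, had 82097, 82926 and 87676 normalized counts in replicates 1 to 3. RPS2 had 78847, 76166 and 77472. RPL3, a protein near the site where peptide bonds form, had 68163, 67391 and 69058. The order of RPLP0, RPS2 and RPL3 was the same in each library and their ranges did not overlap. RPL13A had 64624, 63296 and 63881, and RPL41 had 56225, 60694 and 61278, which overlapped the range of RPS3A, the next member.

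**Figure D2:**
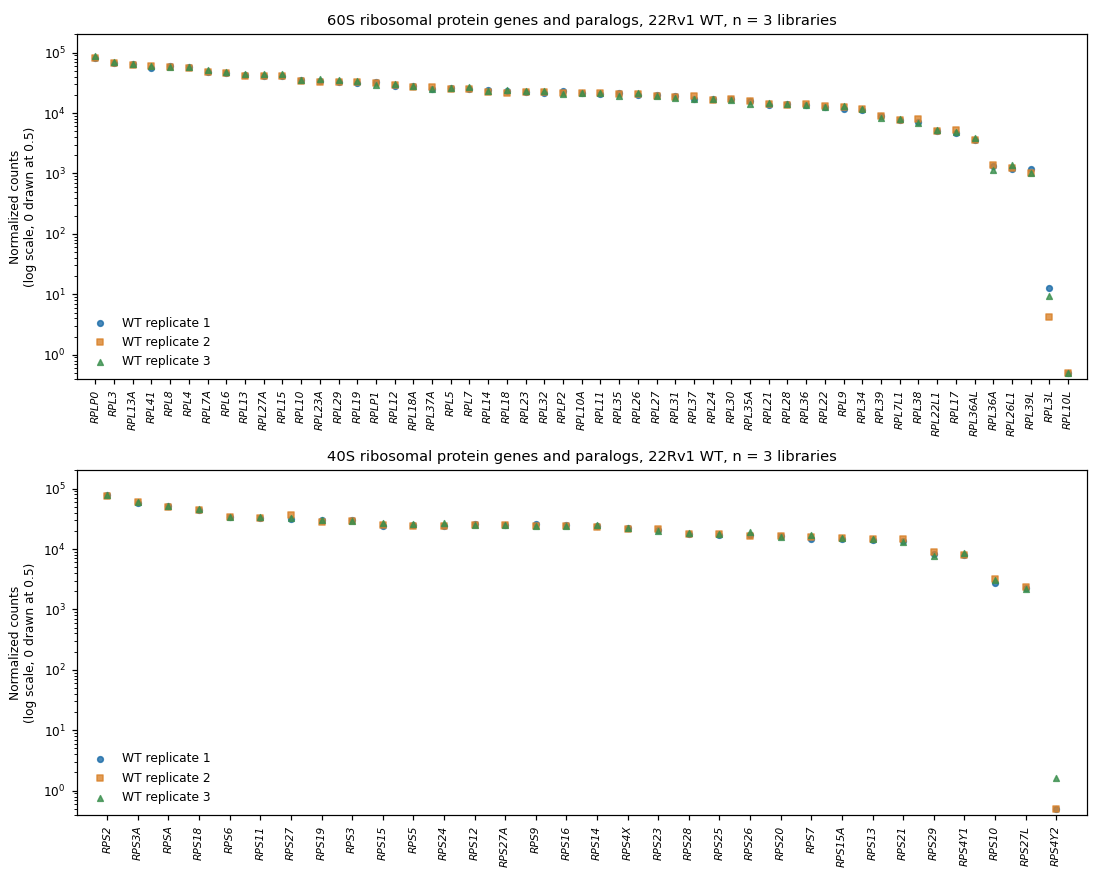
Normalized counts (log axis, a value of 0 drawn at 0.5) of the 53 members of the 60S subunit (top) and 32 of the 34 of the 40S subunit (bottom), ordered by their mean, with one symbol for each of the 3 WT libraries. For most members the 3 symbols overlap, between about RPLP0 at 84233 and RPL36A at 1301, and the low end holds RPL3L, RPL10L and RPS4Y2.

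Levels of different genes were compared per kilobase (kb) of transcript. Per kb of the canonical transcript, the median of the 77 main genes was 27553 normalized counts, beside 315 over 12821 expressed genes with a known length. Of the main genes, 72 were above 95% of the expressed genes and 60 above 99%. Members made up 37 of the 50 most abundant genes per kb, and 16 of the 50 most abundant by normalized counts. The highest per kb were RPS27 (94090 ± 7645, SD, n = 3), RPL41 (87868 ± 4089), RPS18 (82183 ± 2415), RPS2 (82005 ± 1419) and RPLP0 (76229 ± 2724). RPS27 was above RPL41 in each library, though their ranges overlapped, while the order of RPS18 and RPS2 changed between libraries. Among the lowest per kb were RPL10L, RPS4Y2, RPL3L and RPS27L.

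The canonical transcripts of 17 main genes are annotated at over 1500 bases, such as 7573 bases for RPL37 and 7136 for RPL14, although the median is 785. Across the 77 main genes the level per kb fell with this length (Spearman's rho = -0.51, across genes, which are not independent). The levels were therefore also taken per kb of coding sequence, a choice made after seeing the data, and there rho with coding length was -0.07. The 17 genes with long transcripts had a median of 9254 per kb of transcript and 53597 per kb of coding sequence. RPL37, for one, stood at 2366 ± 151 per kb of transcript and at 60932 ± 3890 per kb of coding sequence (SD, n = 3).

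Per kb of coding sequence the main genes lay close together. Their median was 53322, and 70 of 77 lay within 2-fold of it, between 26661 and 106643. Per kb of transcript 51 of 77 lay within 2-fold of their median. The upper quartile was 1.63 times the lower quartile per coding kb and 3.11 times per transcript kb. The genes of both subunits had like medians per coding kb. The median of the 31 main genes of the 40S subunit over that of the 46 of the 60S subunit was 1.00, 1.00 and 1.02 in replicates 1 to 3, a mean of 1.01 ± 0.0110 (SD, n = 3). Per kb of transcript the medians were 32030 for the 40S and 23869 for the 60S genes. The 33 proteins shared by the ribosomes of all domains of life had a median of 53322 per coding kb, and the 44 others 52905.

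**Figure D3:**
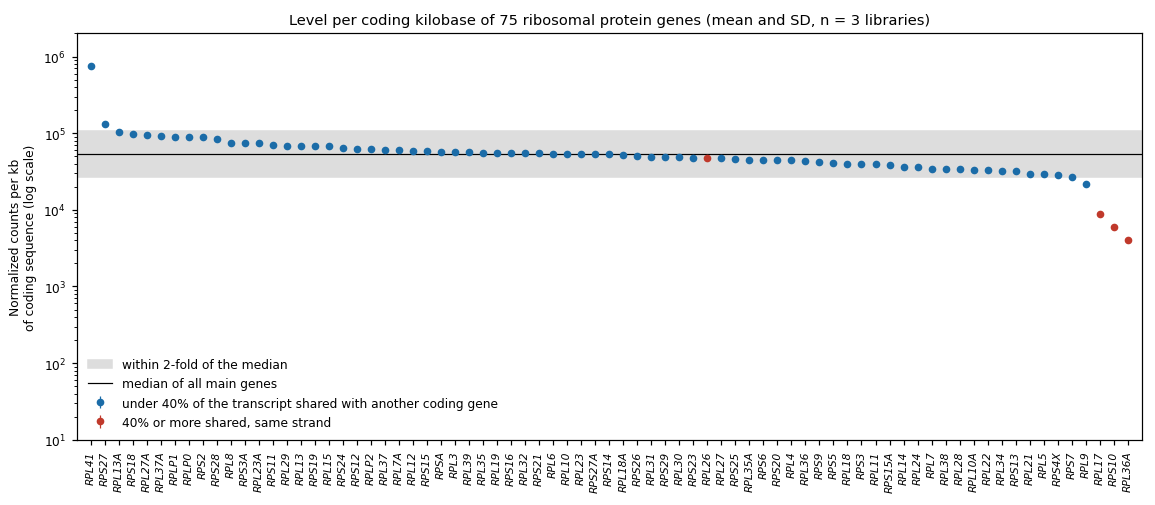
Normalized counts per kb of coding sequence (log axis) of 75 of the 77 main ribosomal protein genes, ordered by level, as mean and SD of 3 libraries, with the median of all 77 (line) and the range within 2-fold of it (grey band). Red marks 4 genes that share at least 40% of their transcript with another coding gene on the same strand, and 3 of them are the lowest points of the plot, at 8893 or less.

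Above this range were RPL41 and RPS27, and among the 5 genes below it were RPL9, RPL17, RPS10 and RPL36A. RPL13A (104467) was the highest gene inside the range and RPS7 (27199) the lowest. RPL41 has the shortest coding sequence, 78 bases within a transcript of 676, and stood at 761526 ± 35442 per coding kb. RPS27, a zinc-binding protein of the 40S subunit, stood at 129881 ± 10553.

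RPL17, RPS10 and RPL36A shared much of their transcript with another annotated coding gene on the same strand. RPL17 shared 96.9% of its transcript with the read-through gene RPL17-C18orf32, and read 4708, 5157 and 4942 normalized counts. RPS10 shared 84.0%, with RPS10-NUDT3, and read 2742, 3218 and 3030. RPL36A shared 43.8% with RPL36A-HNRNPH2 and read 1346, 1404 and 1153. The read-through genes themselves held few reads, on average 111 normalized counts for RPS10-NUDT3, 2.9 for RPL17-C18orf32 and 0 for RPL36A-HNRNPH2. Counting tools commonly set aside reads that fit 2 genes, and the setting used in the study is not given in the sources used here, so the part of this overlap in the low levels was not tested. RPL26 shared 65.3% in the same way and lay inside the range, at 47056 ± 1808 per coding kb. Among the 72 main genes without such an overlap, 69 lay within 2-fold of the median, and the exceptions were RPL41, RPS27 and RPL9 (21646 ± 1303).

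Ribosomal protein genes have many processed copies in the genome, and reads of a gene and its copy cannot always be told apart. At least 50% of the transcript had a match of 98% identity or more elsewhere in 28 of the 77 main genes, RPLP0, RPS2, RPS27 and RPS18 among them. Their median was 53812 per coding kb, beside 50127 for the 49 others. Per transcript kb the medians lay further apart, at 33829 and 24639. Across the main genes, the share copied and the level per transcript kb had a Spearman's rho of 0.01. The files also list 15 ribosomal protein pseudogenes, the highest of which was RPL13AP5 at 2969 ± 82.4 normalized counts (SD, n = 3), beside RPL13A at 63934 ± 666.

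The stalk that recruits elongation factors is formed by RPLP0 and the dimer partners RPLP1 and RPLP2. RPLP1 read 32650, 31033 and 29676 normalized counts. RPLP2 read 22894, 21869 and 20553. Both partners were highest in replicate 1 and lowest in replicate 3, whereas RPLP0 was lowest in replicate 1 and highest in replicate 3. Which partner was higher depended on the length used, since RPLP1 over RPLP2 was 0.563 ± 0.00503 per transcript kb and 1.44 ± 0.0129 per coding kb (SD, n = 3). RPLP1 over RPLP0 was 0.348 ± 0.0281 per transcript kb and 1.02 ± 0.0825 per coding kb. RPLP2 over RPLP0 was 0.619 ± 0.0540 and 0.710 ± 0.0619. The level of the partners to each other varied less between libraries than that of either to RPLP0, over 3 libraries and with no test. A change of length multiplies a ratio by the same factor in each library, so the other scale adds nothing to this.

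RPL5 and RPL11, which with 5S rRNA form a particle that also binds MDM2 and restrains it, had an order that turned with the length used. RPL5 read 26164, 25243 and 26273 normalized counts and RPL11 20498, 21359 and 21531. RPL11 was at 0.825 ± 0.0318 times RPL5 per transcript kb and at 1.36 ± 0.0524 times per coding kb (SD, n = 3). RPS6, the classic substrate of S6 kinase on the ribosome, read 33394, 33395 and 34404, with replicate 3 highest. RPSA, also known as the laminin receptor precursor, read 51096, 49176 and 52326.

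RPS19, the gene most often mutated in Diamond-Blackfan anemia, read 30011, 28441 and 30474 normalized counts, or 67675 ± 2433 per coding kb. The 17 members linked to that disease had a median of 47057 per coding kb. RPS27A, which is made as a fusion with ubiquitin, read 24668, 25369 and 25392. FAU, made as a fusion with a ubiquitin-like protein, and RACK1, a scaffold on the 40S subunit, also belong to the ribosome but have symbols that the rule leaves out. FAU stood at 31820 and RACK1 at 29132 per coding kb, both within 2-fold of the median of the main genes.

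Of the 10 paralogs, 7 were expressed, at 2920 to 13752 per coding kb, all below the median of the main genes, and with a median of 1771 per kb of transcript. Within a pair, the share of the paralog was its level per kb over the sum of the pair. The ranges of paralog and partner did not overlap in any expressed pair.

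RPL36AL, an autosomal copy of the X-linked RPL36A, was the only one of the 7 expressed paralogs above its partner. It read 3629, 3643 and 3921 normalized counts, and held 76.3% ± 2.59 of the pair per transcript kb and 74.1% ± 2.75 per coding kb (SD, n = 3). Its partner is one of the genes whose reads overlap a read-through gene, as given above.

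RPL22L1 and RPS4Y1, the matched paralogs with a pyrimidine run exactly at the annotated start, were next. RPL36AL held such a run within 5 bases of its start, and RPL39L and RPL3L had no matched window. RPL22L1, which RPL22 is known to repress, read 5038, 5017 and 5168 normalized counts, while RPL22 read 12447, 12952 and 12543. Its share was 30.3% ± 0.671 per transcript kb and 29.6% ± 0.663 per coding kb (SD, n = 3). RPS4Y1, the Y-linked copy of RPS4X, read 8005, 7989 and 8435, and RPS4X read 22698, 21701 and 22663. Its share was 31.1% ± 0.609 per transcript kb and 26.7% ± 0.555 per coding kb. With the longest transcript or the union of exons as length, the share of RPL22L1 was 32.5% or 47.7%. That of RPS4Y1 was 35.8% or 33.1%.

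For the other expressed pairs the share depended on the length used as well. RPL7L1 read 7683, 7635 and 7828 normalized counts, and RPL7 25190, 25318 and 26841. RPL7L1 held 7.58% ± 0.163 of its pair with RPL7 per transcript kb, but 22.6% ± 0.406 per coding kb (SD, n = 3). Its canonical transcript is 4499 bases long and that of RPL7 1233. RPS27L read 2239, 2312 and 2174 and held 0.390% ± 0.0243 per transcript kb and 6.36% ± 0.372 per coding kb. In both pairs the share was lower per transcript kb. RPL39L, known from testis, read 1166, 1035 and 1033 beside 8870, 9055 and 8314 for RPL39, and held 6.19% ± 0.406 and 10.98% ± 0.684. With the longest transcript or the union of exons as length, the share of RPL39L was 24.0% or 20.2%, and that of RPL26L1 7.72% or 11.6%. RPL26L1 read 1192, 1248 and 1397 beside 19804, 20640 and 21388 for RPL26, and held 4.34% ± 0.192 and 5.84% ± 0.254, and 90.3% of its transcript matches another place at 98% identity or more.

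The tissue-restricted copies were nearly without reads. RPL10L, a testis copy of RPL10, had 0 reads in each library, whereas RPL10 read 34758, 34077 and 34952 normalized counts. The limit that 3 reads allow is a share of up to 0.0191%, 0.0209% and 0.0189% of the pair in replicates 1 to 3. RPL3L, known from heart and skeletal muscle, had 16, 5 and 12 reads, a share of 0.00772% ± 0.00373 beside RPL3 per transcript kb (SD, n = 3). RPS4Y2 had 0, 0 and 2 reads. All 3 were below the level at which a gene was called expressed.

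**Figure D4:**
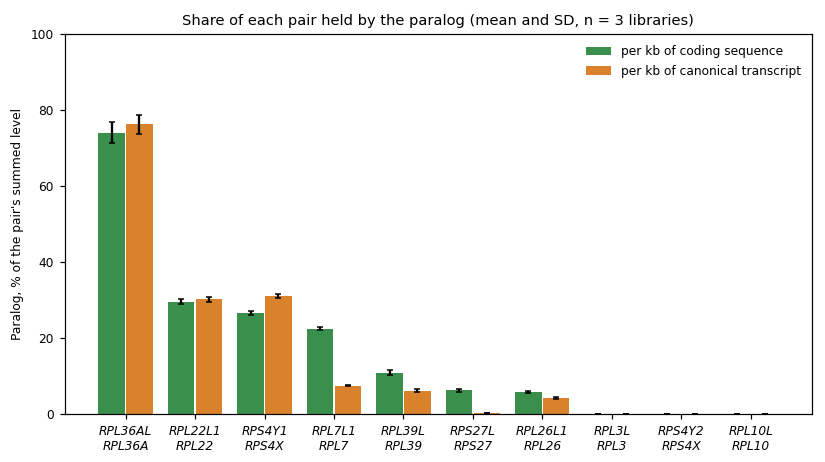
Level of each paralog (upper name) as a percentage of the summed level of the pair with its partner (lower name), per kb of coding sequence (green) and per kb of canonical transcript (orange), as mean and SD of 3 libraries. RPL36AL holds 74.1% of its pair per coding kb, RPL22L1, RPS4Y1 and RPL7L1 hold 22.6% to 29.6%, and RPL3L, RPS4Y2 and RPL10L are at or near 0.

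The libraries were then compared with each other to see how far the members vary when no condition changes. The median coefficient of variation of the 85 members with a mean of at least 10 reads was 3.52%, beside 5.56% over all 14646 such genes and 2.76% over the 607 genes with 10000 reads or more, a class that holds 73 members. It was under 5% in 63 members and under 10% in 82. RPL13A was the steadiest of the main genes, with a coefficient of variation of 1.04%, and RPL3 had 1.22%. The members with the largest ratio between the highest and the lowest library, at a mean of 100 reads or more, were RPL36A (1.22), RPL38 (1.19), RPS10 (1.17), RPL26L1 (1.17) and RPS27 (1.17).

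Reads were tested for homogeneity over the libraries by chi-square, adjusted by Benjamini-Hochberg over all genes tested, which asked whether these differences were larger than the sampling of reads. It called 80 of 85 members at an adjusted p below 0.05, beside 41.9% of all genes tested. At an unadjusted p below 0.05 the chi-square also gave 80 members, beside 50.2% of genes. Among the genes with 10000 reads or more it called 81.5%, and the members' count is read against that depth. The members not called were RPL22L1, RPL3L, RPL7L1, RPS25 and RPS27L. The spread that edgeR estimates for genes of the same abundance, from these same 3 libraries, was then added to the test. With it 1 of the 85 members was called (edgeR trended dispersion), beside 0.416% of all genes. At an unadjusted p below 0.05 it was 13 of 85 members, beside 5.48% of genes. With the chi-square divided by its mean in genes of 10 to 50 reads, 48 members were called. How many members differed by more than counting error thus depended on the test. For nearly all of the 85, a difference beyond the usual spread of genes of that abundance was not detectable with 3 libraries. Since that spread came from the same libraries, members included, few calls are built into this test.

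The differences were small and partly shared. On the log2 scale, the median of the 85 members relative to the mean of the 3 libraries was -0.02 in replicate 1, -0.02 in replicate 2 and 0.02 in replicate 3. With a trend in length and GC content removed, these medians were 0.0084, 0.0209 and 0.0422, with replicate 3 still the highest. They are then measured from a fit over all genes tested, not from the mean of the libraries. The change of sign in replicates 1 and 2 is therefore no turn in direction between libraries. Of the members, 48 were highest in replicate 3, beside 35.7% of all genes tested, 19 in replicate 1 (31.9%) and 18 in replicate 2 (32.7%). Above the mean of the 3 libraries were 57 members in replicate 3, beside 52% of genes, 31 in replicate 2 (47.3%) and 30 in replicate 1 (49.2%). RPS24, a 40S protein, read 24064, 24414 and 27310 normalized counts, and RPS7 read 14856, 15601 and 17277. In both genes replicate 3 stood apart from the other libraries.

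Most of the main genes with the shortest coding sequences did not follow this. Of the 9 main genes with a coding sequence of at most 300 bases, 7 were highest in replicate 2, namely RPS27, RPS21, RPS29, RPL39, RPL37A, RPL38 and RPL37. The other 2, RPS28 and RPL41, which has the shortest coding sequence of all, were highest in replicate 3. Of the 67 longer main genes with at least 1000 normalized counts, 9 were highest there, and 41 were highest in replicate 3. Over all genes tested, 30.7% of the 274 with such a short coding sequence were highest in replicate 2. RPS27 read 30909, 36116 and 32334 normalized counts, and RPL38, known for its part in translating homeobox mRNAs, 7031, 8054 and 6789. RPL37 read 17170, 19231 and 17341. The median of the 9 genes was -0.04, 0.10 and -0.05 on the log2 scale in replicates 1 to 3. This group was set after the values were seen and was not tested, and none of the 9 was called once the dispersion was added.

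On chromosome 12 there are 4 members, together with the enhancer that the study deleted. RPL6 read 46693, 45749 and 48640 normalized counts and starts 2.24 megabases from the centre of the enhancer on GRCh37. RPLP0 starts 5.54 megabases from it on the other side. RPL41 starts 58.6 megabases away and RPS26 58.7. RPS26 read 16829, 16498 and 19006, highest in replicate 3. With the KO libraries not analysed here, these are distances only. Chromosome 19 holds 12 members, more than any other chromosome.

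Of the factors that build and use ribosomes, each of the 5 lists described next had a lower median per coding kb than the main ribosomal protein genes. In the elongation factor list, 3 genes lay above the median of the main genes per coding kb. Each of the 78 mitochondrial ribosomal protein genes was expressed, with a median of 3572 per coding kb. Their highest per transcript kb was MRPL24 (7296 ± 208, SD, n = 3) and their lowest MRPL22 (233 ± 6.29). Ribosome biogenesis and pre-rRNA factors were expressed in 70 of the 70 genes found, with a median of 1751 per coding kb, from NPM1 at 23379 ± 1009 per transcript kb to TAF1B at 205 ± 8.13. NPM1 is the nucleolar chaperone nucleophosmin and TAF1B a factor of RNA polymerase I.

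The 17 chaperones and importers of ribosomal proteins were all expressed, with a median of 3431 per coding kb. They ran from BTF3, of the nascent chain complex, at 8853 ± 237 per transcript kb to HEATR3 at 311 ± 14.7. Regulators of TOP mRNA, mTOR complex genes and LARP1 among them, were expressed in 17 of 17, with a median of 3082 per coding kb, from CNBP at 3674 ± 48.9 per transcript kb to TSC1 at 167 ± 8.79. The elongation factor list, with TPT1, PABPC1 and the release factors in it, was expressed in 13 of 14 genes. Its median was 10444 per coding kb. EEF1A1, which brings aminoacyl-tRNA to the ribosome, stood at 68668 ± 2007 per transcript kb, within the range of the ribosomal protein genes, and EIF5A2 at 42.5 ± 5.90. Per coding kb EEF1A1 (173622), EIF5A (69068) and TPT1 (67016) were above the median of the main genes, and EEF1A1 was above every member but RPL41. For the others this turned with the length used. Per transcript kb EIF5A (25409) and TPT1 (7648) were below the main genes' median of 27553, while EEF1A1 and EEF1G (29367) were above it. GSPT2 was not expressed, with 10, 10 and 8 reads. The chi-square test called 48 of the 78 mitochondrial genes, 31 of 70 biogenesis genes, 11 of 17 chaperones and 10 of 17 TOP regulators. On the elongation factor list it called 8 of 13, beside the 41.9% of all genes given above.

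**Figure D5:**
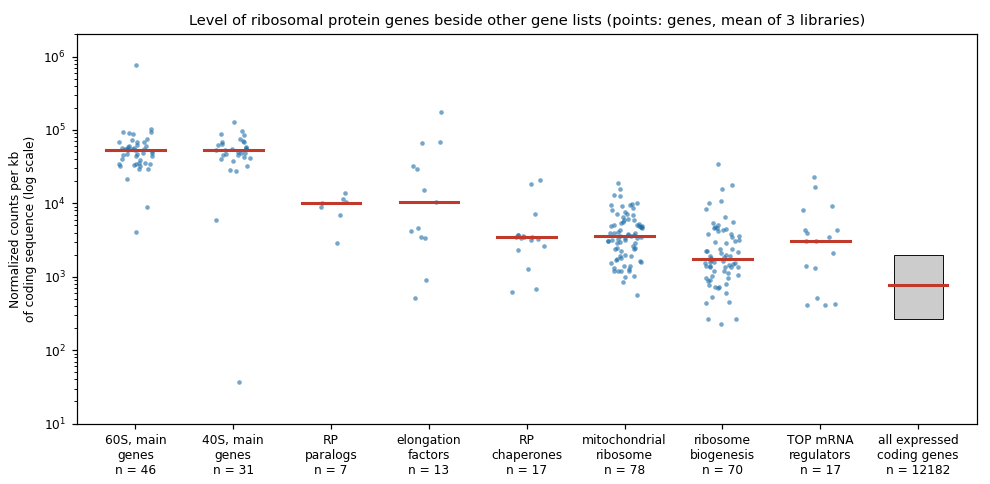
Normalized counts per kb of coding sequence (log axis), one point per gene as the mean of 3 libraries, with the median of each list in red, and 12182 expressed coding genes as a box over their interquartile range. The main genes of both subunits have medians of 53012 (60S) and 53322 (40S), the expressed paralogs lie between 2920 and 13752, and the median of all expressed coding genes is 762.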

How the data were processed

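Paired-end reads were aligned by the authors with HISAT2 on GRCh37, HTSeq gave gene counts, and DESeq2 scaled these. What was deposited is a normalized signal for each gene, that is, reads over 1 size factor per library to 1 decimal. Strandedness and the handling of reads that fit several genes or places are not given in the sources used here, so overlapping and antisense genes could share reads.

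Whole reads were recovered from the step in each library, and 100% of values above 0 were whole within rounding. Of 29000 rows, 1976 repeated the row above in every library and were merged, among them 17 extra rows of 5 members. Symbols, lengths and overlaps came from a GENCODE annotation on GRCh37, and 1 canonical transcript stood for each gene. Copies were sought with BLAST+ 2.17.0 at 98% identity. Where a gene has several RefSeq starts (11 of 70 members), a run at any of them counted, and the window printed is the start with the run. Library sizes came from TMM (edgeR 4.0.16, R 4.3.3). Homogeneity was tested by chi-square (scipy 1.17.1) in genes averaging 10 reads or more, and p-values were adjusted by Benjamini-Hochberg. The procedure was tested on simulated counts with counting error only. That simulation does not check the test under the larger spread of these libraries. DESeq2 1.42.0 gave other size factors. A floor of 3 reads stood for a count of 0.

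Named genes were the paralogs and partners, the stalk, RPSA, RPL5, RPL11, RPL22, RPS6, RPS19, RPS27A, the 5 highest and 5 lowest by counts and per kb, the 5 largest ratios between libraries at a mean of 100 reads or more, RPL6, RPLP0 and RPL41 on chromosome 12, and the highest and lowest expressed gene per kb of each list. Some genes that this rule takes in are not reported here, and 2 members are not drawn in the plots of single genes. Others named were chosen after their values were seen. The members and lists were chosen with earlier results of these data known. With 1 group, no test between conditions was possible.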

Additional observations from a re-analysis of the deposited data

How the results depend on the processing

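The direction of library differences, the levels and the shares were recomputed under other choices. All 216 recomputed normalized counts of the 36 named genes moved by less than 1 SD between libraries. This outcome was close to fixed and is no check of the levels. Leaving out 1 of 3 libraries cannot move a mean by 1 SD. The other scalings were set to the same geometric mean of size factors, so they hardly move a mean either. Lengths mattered most. The median level of the main genes per kb, 27553 with canonical transcripts, was 13714 with the longest transcript, 7629 with the union of exons and 53322 with coding length, the last chosen after seeing the data. The median share of the named paralog over 7 pairs was 7.58%, with RPL36AL counted although it is the larger gene of its pair. It was 23.04% without length scaling, 24.0% with the longest transcript, 20.2% with the union of exons and 22.6% with coding length (the last also chosen later). Of 49 recomputed pair shares, 26 moved by more than 1 SD, all of them with a change of length. Leaving out 1 of 3 libraries cannot move a mean share by 1 SD, so those values are no check. Among the changes of length, only RPL36AL without length scaling and with coding length moved by less. RPL22L1 went to 47.7% of its pair with the union of exons, but RPL36AL stayed above 50% and the other 6 below it.

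The members' share of reads, 7.14%, was 7.91% with repeated rows kept and 6.96% without members that overlap a coding gene. The 80 members called by chi-square fell to 48 when the statistic was divided by its mean in genes of 10 to 50 reads, and to 1 with the edgeR dispersion. Without one replicate in turn the count was 55 to 62. The count of all genes called, 6141, fell to 508 and 61 under the same 2 changes and to 3332 to 3950 with 2 libraries. With a length and GC trend removed, the median deviation went from -0.018 to 0.0084 in replicate 1 and from -0.017 to 0.0209 in replicate 2. Replicate 3 stayed the highest at 0.04. These values are measured from a fit over all genes tested, so the change of sign is no turn in direction between libraries. What moved the medians was not tested. The median coefficient of variation was 2.40% to 3.26% without one replicate. The share of members with a pyrimidine run, 92.9% within 20 bases of a start, was 80.0% within 5 bases, 77.1% for runs of at least 8 and 68.6% exactly at the start, the last chosen later. The number expressed, 83, stayed within 83 to 85.

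No paired analysis was possible because only 1 group of libraries was analysed. Depth limits RPL3L, RPS4Y2 and RPL10L, which rest on 16 reads or fewer per library.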
